A study of Mus musculus with 3 samples.

Results

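The Hox genes encode the transcription factors by which the vertebrate body keeps a record of position. The set described here was every row of the gene table whose symbol is Hoxa, Hoxb, Hoxc or Hoxd followed by digits, which gave 39 of the 32285 genes: 11 in the Hoxa complex on chromosome 6, 10 in Hoxb on chromosome 11, 9 in Hoxc on chromosome 15 and 9 in Hoxd on chromosome 2. The rule reads symbols and no expression value, so levels and differences were tested, although the set was taken up with earlier results of these data known. Antisense and noncoding transcripts named after Hox genes were not members and are given separately below.

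The genes of a complex lie in a row, and members at the same place in different complexes, called a paralog group and given the same number, descend from a common ancestor. Low-numbered groups are switched on early and towards the head in the embryo, high-numbered groups late and towards the tail, and in the limb groups 9 to 13 of Hoxa and Hoxd pattern the segments from shoulder or hip to digits. Skeletal cells of the adult keep part of this pattern, and Hox expression is widely used as a mark of where a stromal cell came from.

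The cells were bone lining cells of WT mice, obtained by digesting femora, tibias and iliac bones with collagenase and sorting Alcam-bearing cells, Alcam being a surface adhesion molecule, that lacked Sca-1 as well as the blood and endothelial markers CD45, Ter119 and CD31. Animals were between 6 and 12 weeks of age, and the strain of these libraries is not given in the sources used here. There was 1 group of 3 replicate libraries of droplet single-cell RNA-seq, with no treatment and no second genotype, so every comparison is between cell classes within libraries. Bones were mixed before sorting, so the bone of origin of a cell was not recorded, and the study's methods call the libraries independent samples without saying whether each came from separate animals. The p-values measure the spread between these libraries, part of which may be technical.

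The libraries held 2606, 7172 and 10529 barcodes with 20985636, 79905165 and 69890252 unique molecular identifiers (UMIs, each counting 1 captured RNA molecule), and 2476, 6363 and 9393 cells were analysed after filtering. Between 5 and 28 barcode sequences were shared by a pair of libraries. Library 1 stood apart in its make-up: chondrocyte-like cells were 6.79% of its cells against 65.0% and 63.6% in libraries 2 and 3, while CXCL12-abundant reticular (CAR)-like stromal cells were 24.0% against 1.29% and 1.11%. Classes were named from marker genes that hold no Hox gene, and no Hox gene was used in clustering. The tendon-like class had Tnmd, a tendon membrane protein, at 490 to 1314 UMIs per 1000000 UMIs of the class (counts per 1000000, CPM) against at most 1.61 in chondrocyte-like cells, CAR-like cells had Lepr at 1062 to 1391 CPM, and chondrocyte-like cells had Acan at 1483 to 2714 CPM. A mesenchymal cluster of 723 cells led by S100a4 and Angptl7 went unnamed, because markers of its best-matching class were outnumbered by those of a different class among its leading genes. Alcam itself was at 12.47 to 76.1 CPM in chondrocyte-like cells and Ly6a, the gene of Sca-1, at 8.18 to 70.6 CPM there, with library 1 the highest for both. Chondrocyte-like cells of library 1 lay mostly in cluster 4 of the mesenchymal cells (102 of 168), whereas the largest share of those of library 2 lay in cluster 1 (1800 of 4137) and of those of library 3 in cluster 2 (2497 of 5978).

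The homeobox, the stretch of 180 bases that codes for the DNA-binding homeodomain, was found once in the annotated coding sequence of each of the 39 genes, always within 1 exon. Its sequences are shown for paralog group 10, which had the highest mean summed level of all groups in chondrocyte-like (75.1 ± 4.73 CPM) and tendon-like cells (119 ± 20.8), and for Hoxb9 and Hoxc9 of the neighbouring group, to make visible how alike the members of a group are whose levels in these classes were so unequal. Sequences are from the mouse build GRCm38, 5′ to 3′ in the direction of transcription, and capitals mark the 18 bases that code for the core of the DNA-recognition helix.
Hoxb9 lies in exon 2 of 2 at chr11:96274659-96274838, plus strand, and Hoxc9 in exon 3 of 3 at chr15:102983930-102984109, plus strand.
Hoxb9: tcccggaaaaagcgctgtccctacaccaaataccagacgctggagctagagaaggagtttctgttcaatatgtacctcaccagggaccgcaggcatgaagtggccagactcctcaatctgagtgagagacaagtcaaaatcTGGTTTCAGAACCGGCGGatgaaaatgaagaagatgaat
Hoxc9: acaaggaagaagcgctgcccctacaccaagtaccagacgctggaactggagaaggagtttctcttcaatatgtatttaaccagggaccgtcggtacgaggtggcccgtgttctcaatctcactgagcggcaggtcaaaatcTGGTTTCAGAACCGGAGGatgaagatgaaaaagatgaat
Hoxa10 lies in exon 2 of 2 at chr6:52232554-52232733, minus strand, Hoxc10 in exon 2 of 2 at chr15:102970848-102971027, plus strand, and Hoxd10 in exon 2 of 2 at chr2:74694141-74694320, plus strand.
Hoxa10: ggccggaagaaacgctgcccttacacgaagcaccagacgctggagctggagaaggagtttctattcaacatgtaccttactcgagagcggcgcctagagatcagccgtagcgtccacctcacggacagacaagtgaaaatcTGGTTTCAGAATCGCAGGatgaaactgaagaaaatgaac
Hoxc10: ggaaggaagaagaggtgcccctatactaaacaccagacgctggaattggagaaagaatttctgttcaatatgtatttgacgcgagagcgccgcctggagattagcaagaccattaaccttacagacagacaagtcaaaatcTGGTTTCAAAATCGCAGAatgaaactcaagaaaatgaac
Hoxd10: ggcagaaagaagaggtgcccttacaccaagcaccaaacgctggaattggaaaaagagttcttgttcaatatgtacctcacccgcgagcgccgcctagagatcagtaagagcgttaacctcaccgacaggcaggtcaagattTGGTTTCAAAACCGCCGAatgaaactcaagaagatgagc
Over the 42 pairs of members in the same paralog group the homeoboxes were identical at a median of 145 of 180 bases (range 121 to 169), against a median of 111 over the 172 pairs in the same complex but different groups. The 3 members of group 10 shared 142 to 149 bases with each other, and Hoxb9 and Hoxc9 shared 151. Members of 1 group with such similar homeoboxes were nevertheless found at very different levels: in chondrocyte-like cells Hoxc10 averaged 54.5 CPM, Hoxa10 20.1 and Hoxd10 0.498.

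Of the 39 members, 37 had at least 1 UMI in the analysed cells, and Hoxb13 and Hoxd12 had none. In all, 33425 Hox UMIs were counted, and 5 members, Hoxc10 (7278 UMIs), Hoxc8 (4859), Hoxc9 (3476), Hoxa10 (3315) and Hoxa9 (3032), held 65.7% of them. The Hoxc complex held 57.9% of Hox UMIs, Hoxa 33.6%, Hoxd 6.28% and Hoxb 2.18%. At least 50 UMIs were counted for 28 members and 1 to 49 for the other 9. Each UMI is 1 tag from the 3′ end of an RNA, so levels were compared between genes without division by length. Hoxc5 and Hoxc10 share 5.37% and 8.70% of their exonic bases on the same strand, and Hoxd3 and Hoxd4 share 9.26% and 13.2%, so the division of tags within these pairs is uncertain. Hoxa3 and Hoxc5 have annotated spans that hold other Hox genes within their introns, and whether intronic reads were counted is not stated.

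In chondrocyte-like cells the Hox signal was led by Hoxc10, Hoxc8 and Hoxc9. Hoxc10 was at 51.6, 59.1 and 52.9 CPM in libraries 1, 2 and 3, Hoxc8 at 51.6, 42.4 and 37.5, and Hoxc9 at 50.7, 23.1 and 22.0. The first 2 differed little between libraries, whereas Hoxc9 was highest in library 1. Hoxa10 (20.1 ± 1.09 CPM, mean ± SD, n = 3), Hoxa9 (15.8 ± 4.30) and Hoxc6 (12.3 ± 0.586) came next, followed by Hoxa3 (8.85 ± 5.70), Hoxa7 (8.17 ± 1.56), Hoxc5 (7.19 ± 2.40), Hoxd8 (5.13 ± 0.542), Hoxc4 (5.09 ± 1.13), Hoxa11 (4.94 ± 0.586), Hoxa5 (4.81 ± 2.12) and Hoxd9 (4.47 ± 2.41). From Hoxa3 to Hoxd9 neighbours in this order lay within the spread of the libraries. Hoxa6 stood at 1.38 ± 1.16 CPM and Hoxc11 at 1.197 ± 1.09. Lower still, Hoxa2, Hoxa4, Hoxa13, Hoxb2, Hoxb3, Hoxb4, Hoxb6, Hoxb7, Hoxd3, Hoxd4 and Hoxd10 were between 0.0940 (Hoxd3) and 0.972 CPM (Hoxb2). Within the class, cluster 4 had more Hox UMIs (327 ± 37.2 CPM) than cluster 2 (215 ± 21.3), and Hoxc8 was at 59.7 ± 17.97 CPM in the former and 39.8 ± 14.8 in the latter. These cluster values were not tested, and with library 1 drawing most of its cells from cluster 4 the library and the cluster cannot be told apart for that library.

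**Figure D1:**
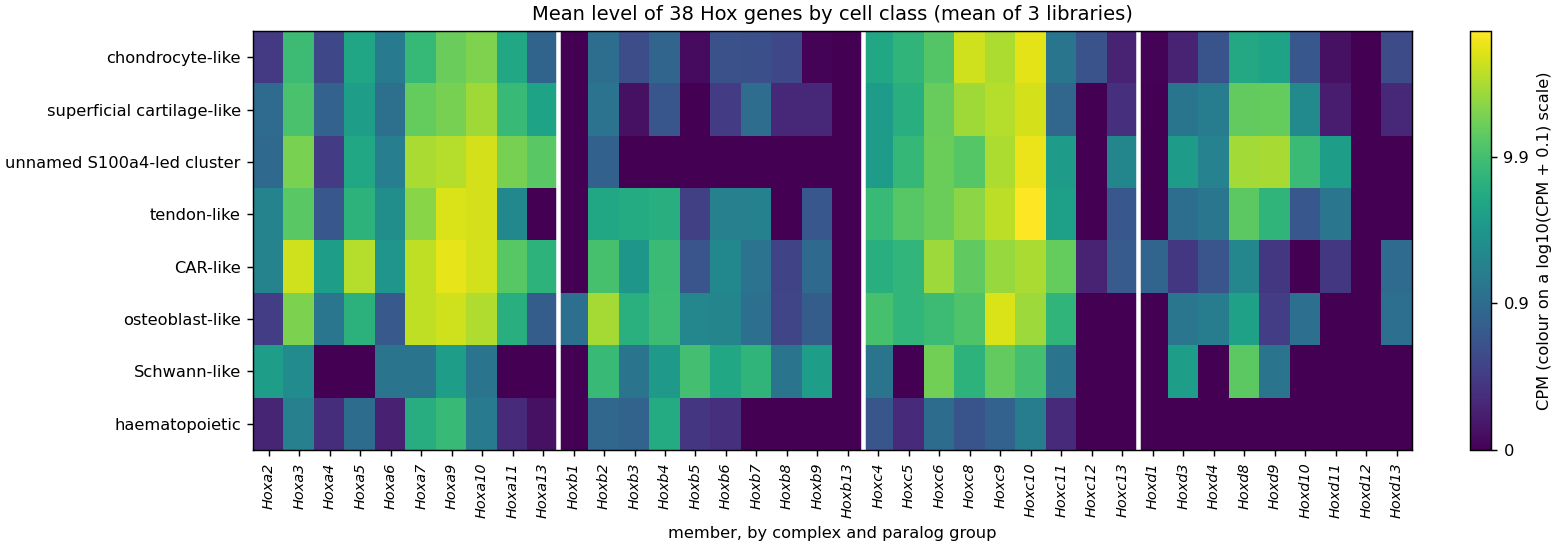
Mean level of 38 Hox genes (columns, grouped by complex and ordered by paralog group) in 8 cell classes (rows), in CPM on a log10(CPM + 0.1) colour scale, mean of 3 libraries. Hoxc8 to Hoxc10 and Hoxa9 to Hoxa10 are bright in the 6 mesenchymal classes, the Hoxb block is dark in chondrocyte-like, superficial cartilage-like and unnamed cells, and the Hoxd block is dark in haematopoietic cells.

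The larger mesenchymal classes divided their Hox signal among the complexes in different proportions. Hoxc genes gave 66.1 ± 0.788% of the Hox signal in chondrocyte-like cells, 51.0 ± 0.542% in superficial cartilage-like cells, 47.6 ± 4.55% in tendon-like cells, 35.3 ± 3.73% in the unnamed cluster and 31.4 ± 1.64% in CAR-like cells (n = 3). Hoxa genes ran the other way, from 28.0 ± 1.74% in chondrocyte-like to 61.0 ± 1.197% in CAR-like cells. Hoxd genes were 20.1 ± 2.64% in the unnamed cluster, 13.1 ± 0.175% in superficial cartilage-like, 6.94 ± 1.63% in tendon-like, 4.61 ± 0.577% in chondrocyte-like and 1.09 ± 0.825% in CAR-like cells. Hoxb genes reached 15.9 ± 1.76% in osteoblast-like cells, but 6.52 ± 1.38% in CAR-like, 5.67 ± 1.36% in tendon-like and 1.25 ± 1.18% in chondrocyte-like cells. These shares were described and not tested. Paralog groups 9 to 13 together gave 57.4 ± 3.54% of the Hox signal in chondrocyte-like cells, 60.9 ± 5.38% in tendon-like and 48.4 ± 5.19% in CAR-like cells. The CAR-like libraries (43.2 to 53.5%) lay below the tendon-like ones (54.9 to 65.3%), the chondrocyte-like range (53.3 to 59.4%) overlapped both, and within each library the share was lowest in CAR-like and highest in tendon-like cells of the 3 classes. The sum of all Hox genes was 277, 224 and 210 CPM in chondrocyte-like cells, 419, 321 and 355 in tendon-like cells and 461, 425 and 340 in CAR-like cells, so the chondrocyte-like class lay below the other two in every library. A sum in CPM cannot tell less Hox RNA per cell from more of other RNA: the trimmed-mean (TMM) scaling used in the tests moved folds of tendon-like and CAR-like against chondrocyte-like cells down by 0.41 and 0.39 on the log2 scale relative to CPM.

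**Figure D2:**
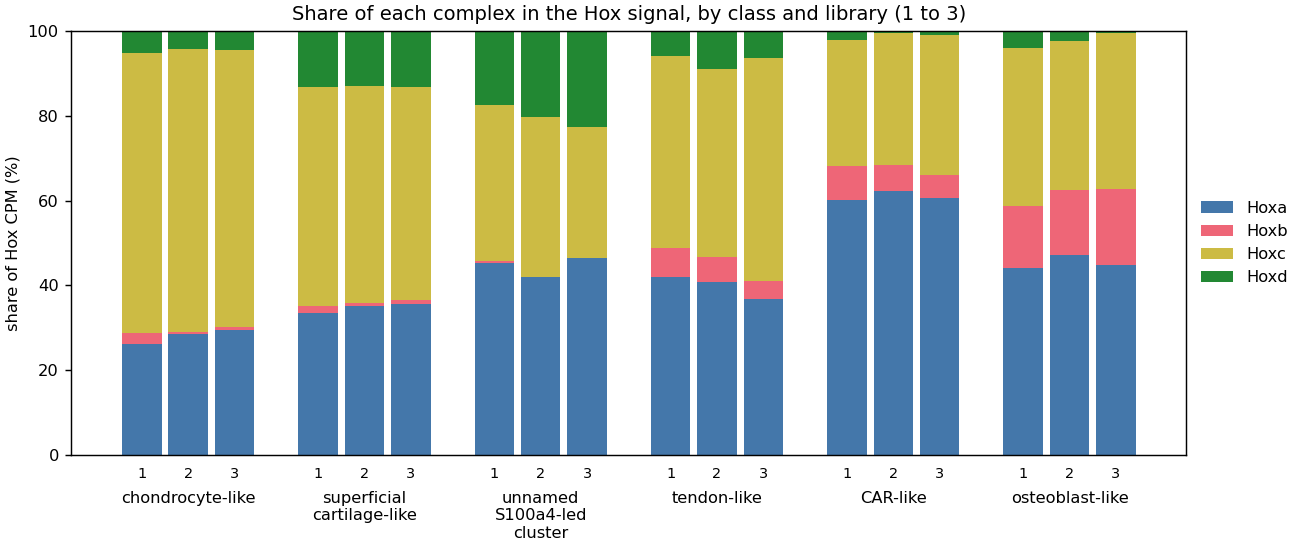
Share of the Hox signal (percent of Hox CPM) from the Hoxa, Hoxb, Hoxc and Hoxd complexes, 1 bar per library and class, libraries 1 to 3 from left to right. Hoxc fills 65.4 to 66.9% of the bars of chondrocyte-like cells and 29.8 to 33.1% of those of CAR-like cells.

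Tendon-like cells differed from chondrocyte-like cells by higher anterior Hoxb genes, higher Hoxa7, Hoxa9 and Hoxa10, and lower Hoxc8. Hoxb3 was at 3.67, 5.95 and 7.39 CPM (5, 4 and 3 UMIs) in tendon-like cells of libraries 1, 2 and 3. In chondrocyte-like cells it was at 0.905, 0.0733 and 0.136 CPM. The groups did not overlap, and the log2 fold change was 4.65 ± 0.81 (SE, adjusted p = 0.000142, edgeR quasi-likelihood test with Benjamini-Hochberg adjustment over 14862 genes, n = 3, as in all tests below). Hoxb4 was at 9.53, 8.92 and 0 CPM against 1.81, 0.183 and 0.249, that is higher in 2 of 3 libraries (log2 fold change 4.12 ± 0.75, edgeR adjusted p = 0.000227). Hoxb2 was at 8.07, 4.46 and 2.46 CPM (11, 3 and 1 UMIs) against 1.81, 0.587 and 0.520 (2.65 ± 0.72, edgeR adjusted p = 0.00726). Its groups did not overlap, but the lowest tendon-like value rests on 1 UMI. These genes of groups 2 to 4 pattern the hindbrain and neck region in the embryo. Hoxb7 passed on 1 library alone, with 5.13 CPM in library 1 and no UMI in the other two (3.24 ± 1.08, edgeR adjusted p = 0.0304), and under a replicate block its adjusted p was 0.149 (range over the alternatives 0.0173 to 0.336).

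Hoxc8, a thoracic-level gene of the Hoxc complex, was at 27.1, 16.4 and 24.6 CPM in tendon-like cells and 51.6, 42.4 and 37.5 in chondrocyte-like cells. It was lower in every library (-1.34 ± 0.32, edgeR adjusted p = 0.00265) while its neighbours did not pass: Hoxc9 had a log2 fold change of -0.01 (edgeR adjusted p = 0.99), Hoxc10 -0.11 (0.839), Hoxc6 0.02 (0.994), Hoxc5 0.62 (0.261) and Hoxc4 0.35 (0.674). Hoxa9, which also acts in blood stem cells, was at 65.3, 34.2 and 46.8 CPM against 10.9, 17.6 and 18.9 (1.08 ± 0.31, edgeR adjusted p = 0.00964). Hoxa7 (1.15 ± 0.37) and Hoxa10 (0.745 ± 0.28) rose as well, with edgeR adjusted p of 0.0214 and 0.0477. In all, 25 members could be tested, of which 7 were higher (28%) and 1 lower (4%), beside 12.5% higher and 14.4% lower among all genes tested, and the median log2 fold change was 0.745 over the members and -0.08 over all genes. The other 14 members did not pass the filter on low counts. It asked for at least 8.06 CPM in at least 1 of the 26 sums of a class and library, and for a minimum total count. Hoxb9 reached 11.7 CPM in Schwann-like cells of library 2 and was not tested. A member with few UMIs could pass the filter through a small sum. Hoxb5, with 20 UMIs in all, passed through 1 UMI in the 24 Schwann-like cells of library 3. Hoxa2, Hoxb6 and Hoxd3 passed through 1 UMI each in the 28 Schwann-like cells of library 2. Hoxb7 passed through 3 and 1 UMIs in Schwann-like cells of libraries 1 and 2. Hoxa6, with 123 UMIs, did not pass. Every one of the 8 calls was lost without library 2, 2 calls stood without library 3 and 5 without library 1.

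**Figure D3:**
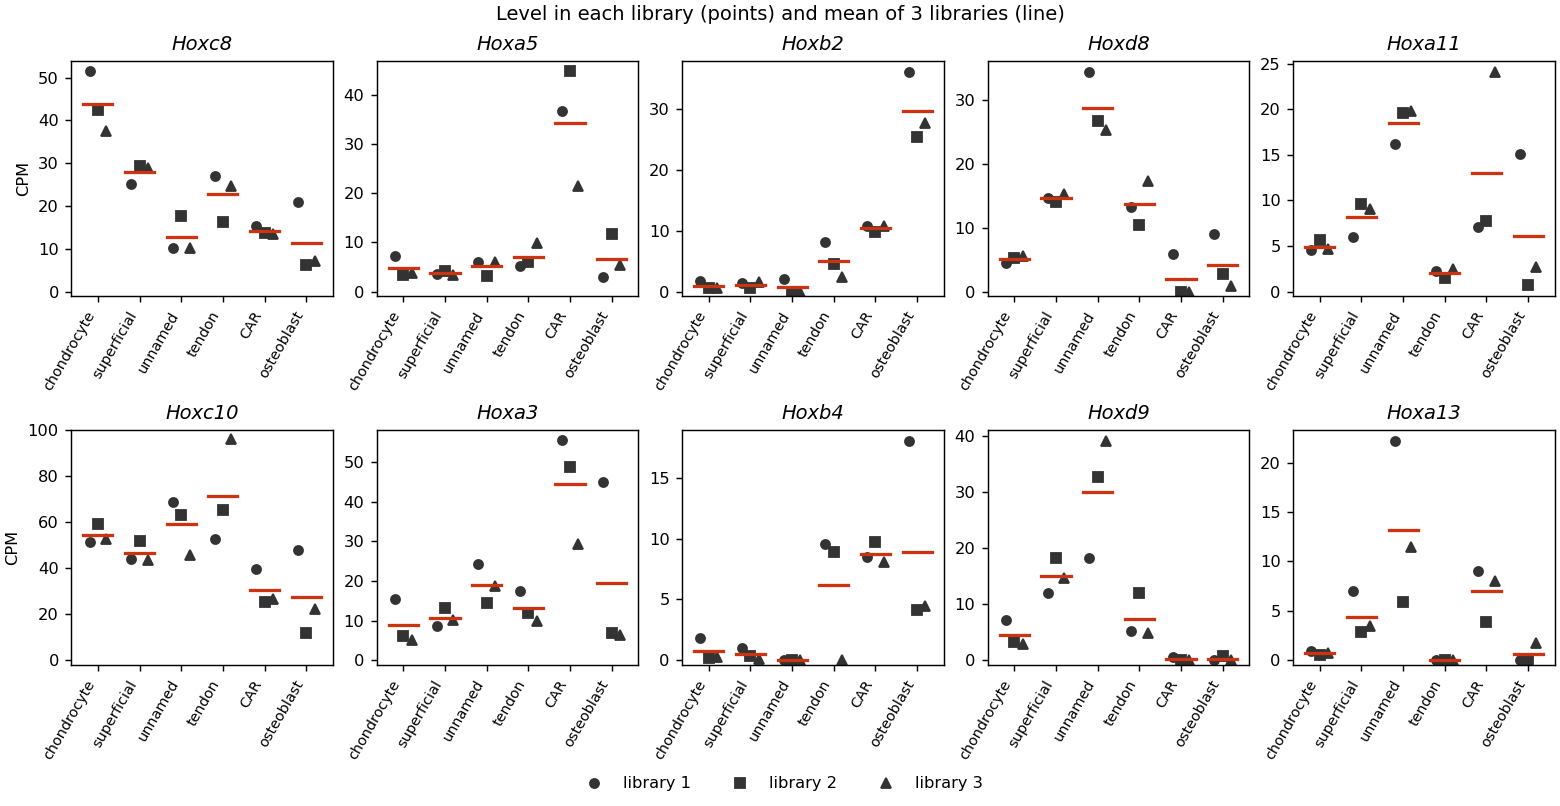
Level of 10 Hox genes (CPM, axis from 0 in each panel) in 6 cell classes, with 1 point per library (circle, square and triangle for libraries 1, 2 and 3) and a line at the mean of 3 libraries. Hoxc8 is highest in chondrocyte-like cells, Hoxa5 and Hoxa3 stand out in CAR-like cells (21.4 to 44.8 and 29.5 to 55.7 CPM), and Hoxd8 and Hoxd9 are highest in the unnamed cluster and in CAR-like cells Hoxd9 is at or near 0 and Hoxd8 at 0 in libraries 2 and 3 but at 5.94 CPM in library 1.

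CAR-like cells, the perivascular stroma of the marrow that supports blood stem cells, differed from chondrocyte-like cells at 16 members, with higher Hoxa, Hoxb and Hoxc11 levels and lower Hoxc8, Hoxc10 and Hoxd9. Hoxa5, a gene of the neck and upper chest region, was at 36.8, 44.8 and 21.4 CPM in CAR-like cells and 7.24, 3.43 and 3.75 in chondrocyte-like cells. The lowest CAR-like library was still above every chondrocyte-like library, and the log2 fold change was 2.63 ± 0.39 (edgeR adjusted p = 1.06e-05). Hoxa3 of the same complex, which shapes the pharyngeal region in the embryo, was at 55.7, 48.7 and 29.5 CPM against 15.4, 6.16 and 4.99 (2.28 ± 0.40, edgeR adjusted p = 6.74e-05). Hoxa7 (1.93), Hoxa9 (1.33), Hoxa2 (2.48) and Hoxa13 (2.94) were higher too, with edgeR adjusted p of 9.7e-05, 0.00105, 0.0223 and 0.000615. Of these, Hoxa2 was higher in 2 libraries and lower in 1, on 13 UMIs in CAR-like cells. It passed under 7 of the 10 alternatives in which it could be tested. Hoxa10 (0.631, edgeR adjusted p = 0.0796) and Hoxa11 (0.575, edgeR adjusted p = 0.396) did not pass. Under a replicate block Hoxa10 did (0.713, edgeR adjusted p = 0.022). Hoxa4 (3.84 ± 1.55 CPM against 0.320 ± 0.282) and Hoxa6 (3.00 ± 2.66 against 1.38 ± 1.16) did not pass the count filter.

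Among the Hoxb genes, Hoxb4 was at 8.48, 9.74 and 8.04 CPM in CAR-like cells against 1.81, 0.183 and 0.249 (4.41 ± 0.72, edgeR adjusted p = 3.93e-05), and Hoxb2 at 10.7, 9.74 and 10.7 against 1.81, 0.587 and 0.520 (3.53 ± 0.64, edgeR adjusted p = 9.8e-05). Both had similar values in the CAR-like libraries, on 38 UMIs of Hoxb4 and 47 of Hoxb2 in all. The Hoxb4 value of library 3 was that of 3 UMIs, the floor there, and the floor of library 2 was 5.84 CPM. Counts this small cannot show whether the levels were steady. Hoxb3 passed with 2 libraries higher and none of its UMIs in library 3 (4.33 ± 0.76, edgeR adjusted p = 9.01e-05). Hoxb6 (3.55 ± 0.97, edgeR adjusted p = 0.00569) and Hoxb7 (3.06 ± 0.99, edgeR adjusted p = 0.0189) passed on library 1 alone, and so did Hoxb5. Its 5 UMIs in CAR-like cells were all from library 1, and its 3 in chondrocyte-like cells were all from libraries 2 and 3. Over summed libraries the ratio of rates was 37.7 (95% counting interval 7.33 to 242). Since no library held Hoxb5 in both classes, that ratio cannot tell class from library. Under a replicate block Hoxb5 and Hoxb7 had adjusted p of 0.41 and 0.213, with ranges over the alternatives of 0.00824 to 0.73 and 0.00673 to 0.393.

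The Hoxc complex turned in both directions. Hoxc8 was at 15.3, 13.6 and 13.4 CPM in CAR-like cells, below every chondrocyte-like library (-2.00 ± 0.34, edgeR adjusted p = 4.47e-05), and Hoxc10 was at 39.9, 25.3 and 26.8 CPM against 51.6, 59.1 and 52.9 (-1.18 ± 0.32, edgeR adjusted p = 0.00475). Hoxc11, the next gene towards the posterior end, was higher, at 12.4, 19.5 and 13.4 CPM against 0, 2.14 and 1.45 (2.65 ± 0.55, edgeR adjusted p = 0.000428). Hoxc4, Hoxc5, Hoxc6 and Hoxc9 did not pass (log2 fold changes 0.08, -0.01, 0.62 and -0.58). Hoxd9 had 2 UMIs in all CAR-like cells and 314 in chondrocyte-like cells, a ratio of rates of 6.95 (1.91 to 57.6) in favour of the latter (edgeR adjusted p = 0.0011). Hoxd8 was at 5.94, 0 and 0 CPM against 4.53, 5.28 and 5.58 and did not pass (edgeR adjusted p = 0.16).

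Of the 25 members tested, 13 were higher (52%) and 3 lower (12%) in CAR-like cells, beside 18% higher and 19.9% lower among all genes tested, with a median log2 fold change of 1.33 over the members and -0.09 over all genes. Of the higher members, Hoxa2, Hoxb5, Hoxb6 and Hoxb7 passed the count filter through Schwann-like cells alone. Without library 1, 2 or 3 there were 13, 10 and 11 calls in place of 16. Hoxa3, Hoxa5, Hoxa7, Hoxa9, Hoxb2, Hoxb4, Hoxc8 and Hoxc11 passed under every alternative in which they could be tested. Cartilage RNA was found in CAR-like cells: Col2a1, the main collagen of cartilage, was at 12.2, 894 and 1546 CPM there, and the whole list of 14 chondrocyte markers summed to 173 to 2741 CPM against 13240 to 65100 in chondrocyte-like cells. In tendon-like cells the list summed to 635 to 3204 CPM and Col2a1 was at 8.07, 944 and 966. Libraries 2 and 3, rich in cartilage cells, were the high ones in both classes and in haematopoietic cells (982 and 1086 CPM of Col2a1), and its part in the Hox levels was not tested.

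**Figure D4:**
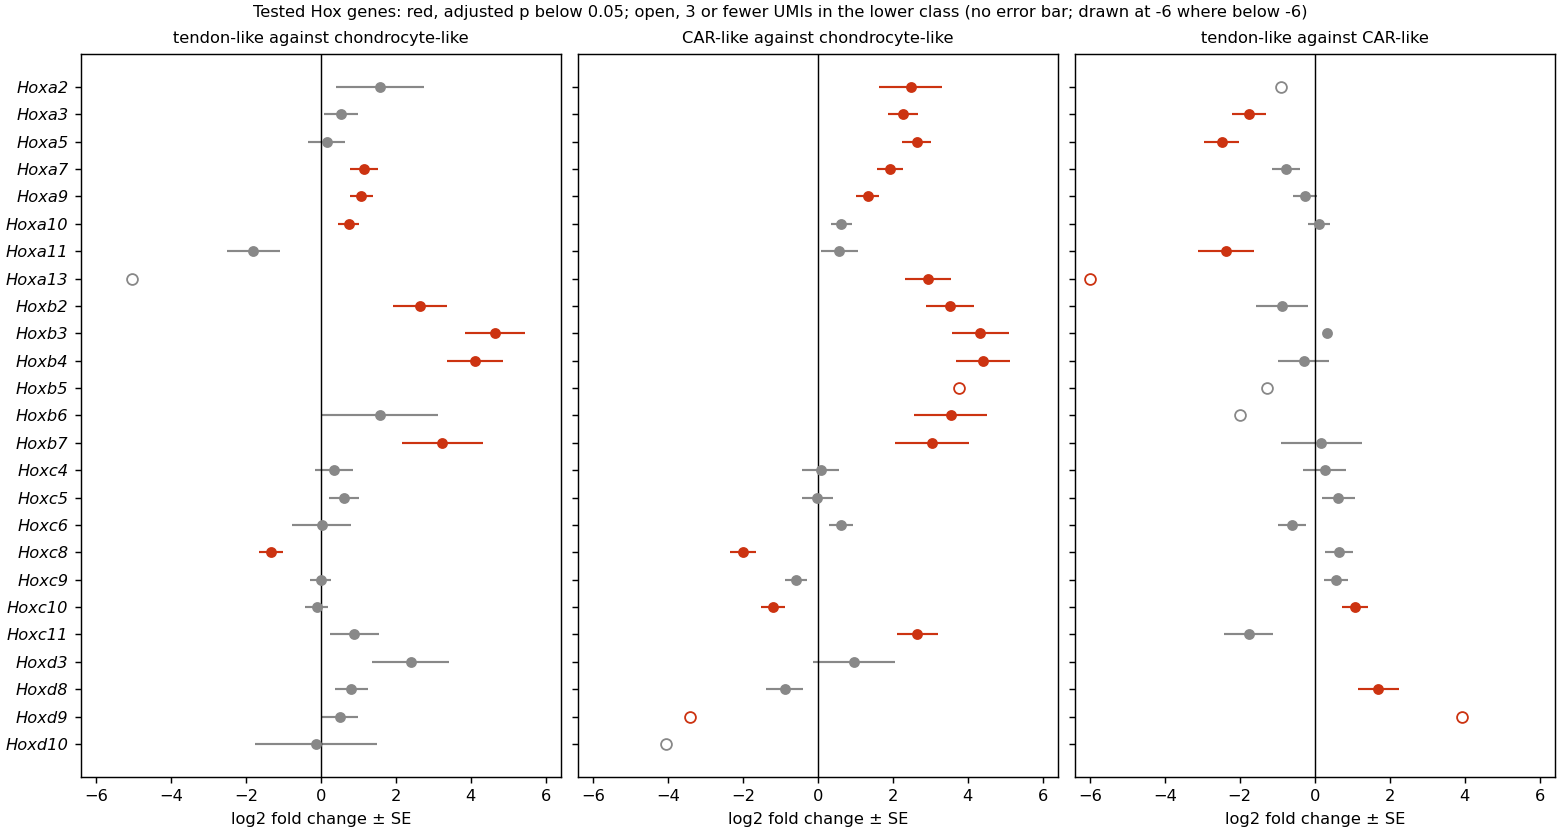
Log2 fold change (± SE) of the tested Hox genes in tendon-like against chondrocyte-like cells (left), CAR-like against chondrocyte-like cells (middle) and tendon-like against CAR-like cells (right). Red points have an adjusted p below 0.05, 8, 16 and 7 of them from left to right, and open points have 3 or fewer UMIs in the lower class, with no error bar.

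Tendon-like and CAR-like cells were compared directly next. They differed at both ends of the Hoxa complex and in Hoxd. Hoxa5 was at 5.13, 5.95 and 9.85 CPM in tendon-like cells, below all CAR-like libraries (-2.48 ± 0.47, edgeR adjusted p = 0.000566), and Hoxa3 was at 17.6, 11.9 and 9.85 CPM, likewise below (-1.75 ± 0.45, edgeR adjusted p = 0.00714). Hoxa11 was at 2.20, 1.49 and 2.46 CPM in tendon-like cells against 7.07, 7.79 and 24.1 in CAR-like cells (-2.37 ± 0.75, edgeR adjusted p = 0.0322). Hoxa13, a gene of the most distal limb, had no UMI in any tendon-like library and 37 in CAR-like cells, which makes it at least 6.81-fold higher in the latter (floor of 3 UMIs over the summed tendon-like libraries, edgeR adjusted p = 0.00273). In the other direction, Hoxd9 was at 5.13, 11.9 and 4.93 CPM in tendon-like cells and 0.566, 0 and 0 in CAR-like cells, a ratio of rates of 15.4 (3.65 to 137, edgeR adjusted p = 0.00182). Hoxd8 was at 13.2, 10.4 and 17.2 CPM against 5.94, 0 and 0 (1.69 ± 0.55, edgeR adjusted p = 0.0359), and Hoxc10 was at 52.8, 65.4 and 96.1 against 39.9, 25.3 and 26.8 (1.07 ± 0.34, edgeR adjusted p = 0.0307).

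The Hoxb genes did not pass between tendon-like and CAR-like cells: the log2 fold changes were -0.88 for Hoxb2 and -0.29 for Hoxb4, with a standard error of 0.68 for each. Of 25 members tested, 3 were higher in tendon-like cells (12%) and 4 lower (16%), beside 7.76% and 8.55% of all genes, and the median log2 fold change was -0.25 over the members and -0.01 over all genes. Only 1 call stood without library 2 and 3 without library 3, whereas 6 stood without library 1. The 3 comparisons share class sums and are not independent of each other.

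Within cartilage, the superficial cartilage-like cells, marked by the lubricant gene Prg4 (59210 to 121800 CPM) and by Cilp, had more Hoxd signal than chondrocyte-like cells. This comparison and the next were added after the levels had been seen. Hoxd8 was at 14.6, 14.0 and 15.3 CPM in superficial cartilage-like cells of libraries 1, 2 and 3, against 4.53, 5.28 and 5.58 (1.56 ± 0.36, edgeR adjusted p = 0.00387). Hoxd9 was at 11.9, 18.3 and 14.7 CPM against 7.24, 3.24 and 2.91 (2.20 ± 0.36, edgeR adjusted p = 0.00016). Neither gene's groups overlapped. Hoxd3 (3.04 ± 0.66, edgeR adjusted p = 0.00261) and Hoxd10 (2.60 ± 0.76, edgeR adjusted p = 0.0245) were higher at low levels, 1.197 ± 0.265 and 2.16 ± 1.58 CPM. Hoxd3 passed the count filter through 1 UMI in Schwann-like cells. Hoxa13 was at 6.96, 2.89 and 3.41 CPM against 0.905, 0.550 and 0.746 (2.70 ± 0.55, edgeR adjusted p = 0.00186), and Hoxa7 was also higher (1.04 ± 0.33, edgeR adjusted p = 0.0317). Hoxd4 was at 1.53 ± 0.684 CPM against 0.453 ± 0.394 and was not tested. With 25 members tested, 6 were higher (24%) and 0 lower, beside 6.72% and 8.9% of all genes. Under a replicate block Hoxa10 (0.653) and Hoxa2 (1.91) passed too, with edgeR adjusted p of 0.0344 and 0.046. No call stood without library 2 or without library 3, and 10 members were called without library 1. The share of all genes called in that fit is not given here, so the rise cannot be read as particular to the members. The boundary between the 2 classes shifted with the clustering, and 4 to 6 members were called under the alternative cell filters and clusterings. In library 1, 211 of the 483 superficial cartilage-like cells came from cluster 10, which holds 14 cells of the other libraries. Cluster 10 was led by Lcn2, Nos2, Cxcl2 and Mmp3. Its Hox genes summed to 190 CPM in library 1, against 290 ± 39.05 CPM (n = 3) in cluster 3, the other cluster of this class. The part of cluster 10 in the values of library 1 was not tested.

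The unnamed cluster led by S100a4 and Angptl7 carried this pattern furthest in its levels. Hoxd8 was at 34.3, 26.7 and 25.3 CPM, Hoxd9 at 18.2, 32.6 and 39.1 and Hoxd10 at 8.08, 13.04 and 4.81. Each was above the superficial cartilage-like value of the same library, but none passed the test against that class (log2 fold changes 0.47, 0.60 and 1.69, edgeR adjusted p of 0.519, 0.336 and 0.166). The TMM scaling lowered these folds by 0.49 relative to CPM. Hoxd11, a gene of the middle limb segment, had 16 UMIs in the unnamed cluster and 2 in superficial cartilage-like cells, a ratio of rates of 46.5 (10.9 to 417), and did not pass the count filter. Hoxa11 (18.5 ± 2.06 against 8.21 ± 1.97 CPM) and Hoxa13 (13.2 ± 8.31 against 4.42 ± 2.21) lay higher in each library without passing. Hoxc8 alone was called, lower at 10.1, 17.6 and 10.2 CPM against 25.2, 29.4 and 29.0 (-1.54 ± 0.33, edgeR adjusted p = 0.00351). Thus 0 of 25 members were called higher and 1 lower (4%), beside 3.51% and 4.14% of all genes. With 76 cells in library 1 the precision was low, and the call was lost without library 2 and without library 3. Of the 10 Hoxb genes, Hoxb2 alone had a UMI in this cluster, 1 in 723 cells.

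The posterior members of groups 9 to 13 can be followed from the most to the least abundant. After Hoxc10, Hoxc9, Hoxa10 and Hoxa9 came Hoxa11 with 835 UMIs, Hoxd9 with 801, Hoxc11 with 301, Hoxa13 with 223 and Hoxd10 with 98. Hoxc13 and Hoxd11 had 28 UMIs each, Hoxc12 23, Hoxb9 15 and Hoxd13 11, and Hoxb13 and Hoxd12 had 0. The end genes of Hoxd, which pattern the digits, were thus at or near 0, whereas Hoxa13 reached 22.2 CPM in library 1 of the unnamed cluster. Group 11 summed to 26.1 ± 0.186 CPM in the unnamed cluster and 28.3 ± 8.76 in CAR-like cells but to 6.17 ± 1.64 in chondrocyte-like and 7.30 ± 2.10 in tendon-like cells. The make-up of that sum differed: Hoxa11 gave 18.5 ± 2.06 CPM in the unnamed cluster, with Hoxc11 at 3.71 ± 3.88, whereas Hoxc11 gave 15.1 ± 3.82 in CAR-like cells beside Hoxa11 at 12.99 ± 9.64.

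Osteoblast-like cells, the bone-forming cells marked by Bglap, had the most Hoxb signal among mesenchymal classes with 3 libraries. Hoxb2 was at 36.1, 25.4 and 27.7 CPM there, against 9.74 to 10.7 in CAR-like cells, and no library of one class overlapped the other. This difference was not tested. Hoxb3 averaged 6.45 ± 0.618 CPM, Hoxb4 8.88 ± 7.94, Hoxa7 38.4 ± 16.4, Hoxa9 43.9 ± 16.8 and Hoxc9 48.9 ± 17.7. Library 1 was the highest for Hoxb2, Hoxb4, Hoxa7, Hoxa9 and Hoxc9, from 69 cells in which Bglap was at 6039 CPM against 34160 and 33970 in libraries 2 and 3, Prg4 at 8333 and Cxcl12 at 761 CPM, and the part of other cells in its values was not tested.

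To see whether the leading members were used by the same cells, the share of cells with a UMI of one was compared between cells with and without a UMI of another. Among chondrocyte-like cells of library 2, Hoxc8 was found in 43.0% of the 1795 cells with a Hoxc10 UMI (exact 95% binomial interval 40.6 to 45.3%) and in 23.8% of the 2342 cells without (22.1 to 25.6%). The 2 sets of cells had median depths of 15987 and 8978 UMIs. When each cell was thinned to 1000 UMIs the difference was -0.433 percentage points in that library, and over 3 libraries it went from 10.2 ± 9.16 to -1.44 ± 3.998 points. In tendon-like cells Hoxc10 and Hoxa10 went from 10.1 ± 5.98 to 1.06 ± 7.38 points. In CAR-like cells Hoxa3 and Hoxa7 had a difference of 14.98 ± 8.54 points before and 8.96 ± 12.4 after thinning. The thinned values of these pairs spanned 0 in the range of the libraries, and no joint use was detectable at this depth. Of the 9 pairs of leading members in these 3 classes, Hoxc8 and Hoxc9 in chondrocyte-like cells kept a positive difference in each library after thinning (1.52 to 17.7 points), on 2, 8 and 9 cells with both genes. For Hoxc10 and Hoxa9 in tendon-like cells no thinned cell held both, among 12, 8 and 6 cells with a Hoxc10 UMI. A further 9 pairs with Hoxa11, in superficial cartilage-like, unnamed and CAR-like cells, were examined after the levels had been seen and held at most 1 thinned cell with both genes in any library, too few to be described. These differences were described and not tested.

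Haematopoietic cells that passed the sort served as a background for free RNA in droplets. A Hoxc10 UMI was found in 1.81 ± 0.998% of haematopoietic cells (median depths 9008.5, 16886 and 8267 UMIs), against 31.4 ± 10.6% of chondrocyte-like (5495, 12373 and 7091), 28.6 ± 4.62% of tendon-like (5241, 7001.5 and 4229) and 13.9 ± 4.98% of CAR-like cells (5920, 6434.5 and 3792). Hoxc10 stood at 0.864, 1.53 and 2.09 CPM and Hoxc8 at 0.216, 0.254 and 0.897 CPM in haematopoietic cells, and no UMI of any Hoxd gene was counted in them, which allows up to 0.324, 0.762 and 0.897 CPM per gene in libraries 1, 2 and 3 (3 UMIs per library, for counting error only). Any Hox UMI was found in 21.9 ± 4.67% of haematopoietic and 70.6 ± 7.29% of chondrocyte-like cells, and with each cell thinned to 1000 UMIs in 3.06 ± 1.19% and 21.6 ± 3.96%. Hoxa9 (6.81, 7.12 and 11.1 CPM), Hoxa7 (2.59, 6.10 and 8.97) and Hoxb4 (4.11, 6.10 and 6.58) were the leading members in haematopoietic cells, so their differences between mesenchymal classes are given beside Ptprc, the gene of CD45. Ptprc was at most 0.733 CPM in tendon-like and 0.283 CPM in CAR-like cells, against 55.9 to 121 in haematopoietic cells.

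Genes that work with or around the Hox proteins were counted from 5 lists of 53 genes. Beside these counts, 12.5% of all genes tested were higher and 14.4% lower in tendon-like than in chondrocyte-like cells. The shares were 18% and 19.9% for CAR-like against chondrocyte-like cells, and 7.76% and 8.55% for tendon-like against CAR-like cells. No list was tested as a set. The TALE homeodomain proteins bind DNA together with Hox proteins. Of 8 described here, 3 were higher in tendon-like than in chondrocyte-like cells (Meis1, Meis2 and Meis3) and none lower, and 5 were higher in CAR-like cells (Pbx2, Meis1, Meis2, Meis3 and Pknox2). Pbx3 (86.4 ± 40.4, 112 ± 34.4 and 88.6 ± 33.1 CPM in tendon-like, CAR-like and chondrocyte-like cells) and Pknox1 (37.9 ± 23.7, 46.6 ± 3.17 and 34.4 ± 1.97 CPM), in the same order, did not pass. Between tendon-like and CAR-like cells 2 of the 8, Pbx2 and Pknox2, were lower in the former.

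Of 15 tested limb and girdle patterning genes, 6 were higher and 5 lower in tendon-like than in chondrocyte-like cells. Shox2, which controls the upper limb segment, was among the lower ones at 73.6 ± 19.2 against 139 ± 31.8 CPM (-1.36 ± 0.38, edgeR adjusted p = 0.00967), as were Tbx15 at 76.2 ± 20.5 against 107 ± 15.99 (-0.87, edgeR adjusted p = 0.0363) and Irx3 at 28.0 ± 12.4 against 59.0 ± 38.4 (-1.30, edgeR adjusted p = 0.0175). Tbx4 and Pitx1, both hindlimb genes, were called in opposite directions, Tbx4 higher and Pitx1 lower. In CAR-like cells 3 of the 15 were higher (Alx4, Pax9 and Emx2) and 3 lower (Pax1, Hand2 and Pitx1), both near the shares of all genes. Shox2 (108 ± 10.7 CPM), Tbx15 (119 ± 21.6) and Irx3 (94.2 ± 6.64) did not pass against chondrocyte-like cells. Irx3 was the 1 gene of the list lower in tendon-like than in CAR-like cells, where Lhx9 and Msx1 were higher.

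Noncoding RNAs of the Hox complexes gave 6 tested genes. Hotairm1, transcribed from within the Hoxa complex, was at 65.1 ± 17.9 CPM in CAR-like, 19.1 ± 6.50 in tendon-like and 17.1 ± 4.203 in chondrocyte-like cells (CAR-like against chondrocyte-like 1.56 ± 0.35, edgeR adjusted p = 0.00104, and tendon-like against CAR-like -1.72 ± 0.40, edgeR adjusted p = 0.00338). Hoxaas2 and Hoxb3os were also higher in CAR-like than in chondrocyte-like cells, and Hoxb3os was the 1 such gene higher in tendon-like cells. Hoxd3os1 (2.99 ± 2.92 CPM in CAR-like and 3.90 ± 0.689 in chondrocyte-like cells) and Hoxa11os (9.11 ± 4.10 and 3.34 ± 0.266) did not pass. Among 10 Polycomb and Trithorax genes, whose products keep Hox genes silent or active, Ezh2 was at 129 ± 36.9 CPM in CAR-like and 45.9 ± 1.73 in chondrocyte-like cells (1.07 ± 0.27, edgeR adjusted p = 0.00306) and was lower in tendon-like than in CAR-like cells (edgeR adjusted p = 0.0349). Eed was the other one higher in CAR-like cells and Cbx2 the 1 higher in tendon-like cells, so the counts of higher genes were near the shares of all genes. Kmt2a (133 ± 55.0 and 92.4 ± 41.5 CPM in CAR-like and chondrocyte-like cells) and Suz12 (64.3 ± 23.3 and 51.2 ± 12.9) did not pass. The 5 Cdx and Evx genes did not pass the count filter, with 9 of Cdx1 and 4 of Evx1 in all analysed cells.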

How the data were processed

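Single-cell libraries of bone lining cells, sorted as bearing Alcam and lacking Sca-1, (1 group, 3 replicates as labelled) were made by the authors with 10x Genomics 3′ chemistry. The values deposited by the authors are raw UMI counts per gene and barcode, made with Cell Ranger 7.1.0 on mm10 per the labels and file headers, with no normalization. The annotation release and the intron setting are not given in the sources used here. No other column of per-sample values was present.

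From these counts, barcodes with under 200 genes or over 20% mitochondrial UMIs were removed, as were the cells with the highest Scrublet scores (0.8% per 1000 cells). Cells were clustered with scanpy 1.11.5 and leidenalg 0.10.2 (2000 variable genes without Hox and related genes, 30 components, 15 neighbours, resolution 1, then 0.5 for mesenchymal cells). Clusters were named by 19 lists of textbook markers, and a rebuilt name can differ from the study's. UMIs were summed per library and class (at least 20 cells) and tested with edgeR 4.0.16 (quasi-likelihood, TMM, filterByExpr, R 4.3.3) over 14862 genes with Benjamini-Hochberg adjustment at 0.05, where fold changes are on edgeR's log2 scale and their SE was taken from the p-value. DESeq2 1.42.0, other scalings, filters, clusterings, thinning to 1000 UMIs and leaving out each library were alternatives. The test was run on simulated counts with known changes first. Intervals are exact Poisson or binomial at 95% and cover counting error only, and 3 counts set the floor.

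The members, the related-gene lists and the tests were chosen with earlier results of these data known, and 2 comparisons (superficial cartilage-like against chondrocyte-like cells, and the unnamed cluster against superficial cartilage-like cells) were added after the levels had been seen. Members were named with values when they had at least 50 UMIs, with full test values for up to 6 members with the largest log2 fold change among those called, and members of paralog groups 9 to 13 by their UMIs. Of each related list the 3 genes with most UMIs were named with values; other members named were chosen after their values were seen. Some genes and sequences that these rules would name are not reported here. Class sums of a library come from the same sorted cells, and their deviations from the class means correlated at 0.034 to 0.229 (under 0.1 in 4 of 15 library pairs), so the library was taken as pairing the sums. The fit had no block, and the blocked value is given where it changed a call. Homeobox sequences and positions are from the GENCODE M21 transcripts on GRCm38, which is the sequence of mm10.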

Additional observations from a re-analysis of the deposited data

How the results depend on the processing

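No called fold change changed direction in any alternative. Leaving out each library in turn gave 0 to 5 called members in place of 8 for tendon-like against chondrocyte-like cells, 10 to 13 in place of 16 for CAR-like against chondrocyte-like cells, 1 to 6 in place of 7 for tendon-like against CAR-like cells, 0 to 10 in place of 6 for superficial cartilage-like against chondrocyte-like cells and 0 to 3 in place of 1 for the unnamed cluster against superficial cartilage-like cells. Fewer samples enter these fits, and a class left with fewer sums borrows its spread from the others. The shares of all genes called in these and the other alternative fits are not given here. A change in a count of members can therefore not be told from a change over all genes. Gating single cells on markers, which left 8 members testable, gave 4, 5 and 1 calls in the first 3 comparisons. Counting superficial cartilage as chondrocyte-like gave 5 calls in the first. For tendon-like against CAR-like cells the automatic Scrublet threshold gave 3 calls. Clustering with Hox and related genes allowed gave 4. In that clustering no Hox gene was among the variable genes chosen over all cells, and those of the mesenchymal step were not counted. The cause of either change was not tested. Without the count filter the unnamed cluster had 2 calls. A replicate block gave 7, 15 and 7 calls in the first 3 comparisons and DESeq2 7, 13 and 7. Under the block the lost calls were Hoxb7 in both comparisons with chondrocyte-like cells (log2 1.90 and 1.503) and Hoxb5 in CAR-like cells (1.68). The gained calls were Hoxa10 in CAR-like cells (0.713) and Hoxa10 (0.653) and Hoxa2 (1.91) in superficial cartilage-like cells, and it changed no other call of a member. Alternative clusterings were not run for the unnamed cluster, which they do not define.

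Thinning to 1000 UMIs turned the sign of several mean co-detection differences, none of which had been tested. It moved the co-detection differences in chondrocyte-like cells to -1.44 points for Hoxc10 and Hoxc8, -2.15 for Hoxc10 and Hoxc9 and 7.39 for Hoxc8 and Hoxc9, and in tendon-like cells to -4.53 for Hoxc10 and Hoxa9, 1.06 for Hoxc10 and Hoxa10 and -3.35 for Hoxa9 and Hoxa10. The mean summed Hox levels of chondrocyte-like, tendon-like and CAR-like cells stayed within 1 SD of the libraries in every alternative. For 38 called member results, 302 of 339 values in other settings and 54 of 102 with a library left out stayed past the threshold. Tendon-like and CAR-like sums of libraries 2 and 3 rest on 82 to 104 cells, which limits members below about 10 CPM.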

Other observations

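Pericyte-like cells, which wrap small vessels, were numerous enough for a value in library 1 alone (63 cells). Their Hox UMIs summed to 404 CPM, of which Hoxb genes gave 21.7%, with Hoxb2 at 38.1 CPM and Hoxb4 at 29.3. Among haematopoietic cells the basophil-like ones held much of the Hox signal, with Hoxa9 at 26.0, 12.9 and 21.2 CPM, Hoxa7 at 15.5, 14.2 and 18.3 and Hoxb4 at 16.3, 8.38 and 7.75 in libraries 1, 2 and 3. Neutrophil-like cells had Hoxb4 at 11.1, 9.84 and 8.94 CPM, and Hoxa9 at 10.2, 3.28 and 0.894. Schwann-like cells, the glia of peripheral nerve, had 123.1 ± 8.85 CPM of Hox UMIs (n = 3), of which Hoxb genes gave 32.8 ± 7.52% and Hoxa genes 10.9 ± 10.1%. These shares rest on 39, 10 and 4 Hox UMIs from 123, 28 and 24 cells in libraries 1, 2 and 3. None of these values was tested.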
